A study of Arabidopsis thaliana with 6 samples.

Results

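The authors' deposited table of genes near RGA-GFP peaks held 333 nuclear tRNA genes of Arabidopsis thaliana, out of 13426 genes in the table (2.48%) and of 625 nuclear tRNA genes in the RefSeq annotation (53.3%). A gene was taken as a member when its type in that table was tRNA, and the table lists a gene only when a peak of at least 1 RGA-GFP replicate reached its window. The members were therefore chosen by the peaks of the RGA-GFP libraries, and their values are given as a description with no test. All 333 matched a RefSeq tRNA gene with the same amino acid, and together they covered 20 amino acids, 45 anticodons and 5 chromosomes.

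Transfer RNA genes are short genes transcribed by RNA polymerase III. Their promoter lies inside the gene, where the A box and the B box are bound by the factor TFIIIC, which then places TFIIIB, with its subunit TBP, just upstream of the start. RGA is a DELLA protein, a nuclear repressor of gibberellin responses; it is not known to contact DNA by itself and reaches chromatin through other transcription factors. Chromatin immunoprecipitation with sequencing (ChIP-seq) shows where a protein lies on the genome, directly or through partners, and measures no transcription.

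The RGA-GFP plants carried RGAp:GFP-rga-delta17, a fusion of green fluorescent protein to a form of RGA that is insensitive to gibberellin, driven by the RGA promoter, in the Landsberg-erecta accession. The wild type plants were Landsberg-erecta without the transgene and gave the background of the same anti-GFP µMACS beads. Both groups were inflorescence apices fixed with formaldehyde and a further crosslinker, each with 3 biological replicates, and each replicate pooled 1 to 2 g of tissue. The labels do not say how many independent transgenic lines were used or whether the native RGA gene was intact. After duplicates were removed, the RGA-GFP libraries held 14644122 to 16745139 tags and the wild type libraries 3999159 to 10014730. The RGA-GFP lists held 9343 to 11116 peaks, the wild type lists 285 to 972, and the authors' pooled list of combined RGA-GFP against combined wild type 8112. No tRNA sequence was read here, so none is printed.

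Peaks lay on the tRNA genes themselves and not only in their surroundings. Of all 625 nuclear tRNA genes, 235 were overlapped by a peak of RGA-GFP 1, 242 by a peak of RGA-GFP 2 and 290 by a peak of RGA-GFP 3 (mean 256 ± 29.9, SD, n = 3). In wild type 1, 2 and 3 the counts were 19, 4 and 10 (mean 11.0 ± 7.55, SD, n = 3). Every RGA-GFP library was above every wild type library, and the groups did not overlap, but the RGA-GFP libraries were also the deeper ones and had many more peaks in all. The part of depth in this difference was not tested.

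As a share of all tRNA genes, these counts were 37.6%, 38.7% and 46.4% in RGA-GFP and 3.04%, 0.64% and 1.60% in wild type. Protein-coding genes, whose median length was 2078 bp against 73 bp for tRNA genes, were overlapped in 27.1%, 29.8% and 25.2% of cases in RGA-GFP and in 1.88%, 0.317% and 0.773% in wild type. The tRNA share was the higher of both in each of the 3 RGA-GFP lists, and also in each of the 3 wild type lists. Taken as a share of each peak list, peaks on tRNA genes made up 2.19%, 2.15% and 3.05% of the RGA-GFP lists (mean 2.46% ± 0.51, SD, n = 3). They made up 1.95%, 1.40% and 1.71% of the wild type lists (mean 1.69% ± 0.28, SD, n = 3). By this measure the groups also did not overlap, yet RGA-GFP 2 lay only 0.195 percentage points above wild type 1, less than the SD of either group. RGA-GFP 3 was the highest library: it had the fewest peaks of the RGA-GFP lists and the most tRNA genes with a peak.

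**Figure D1:**
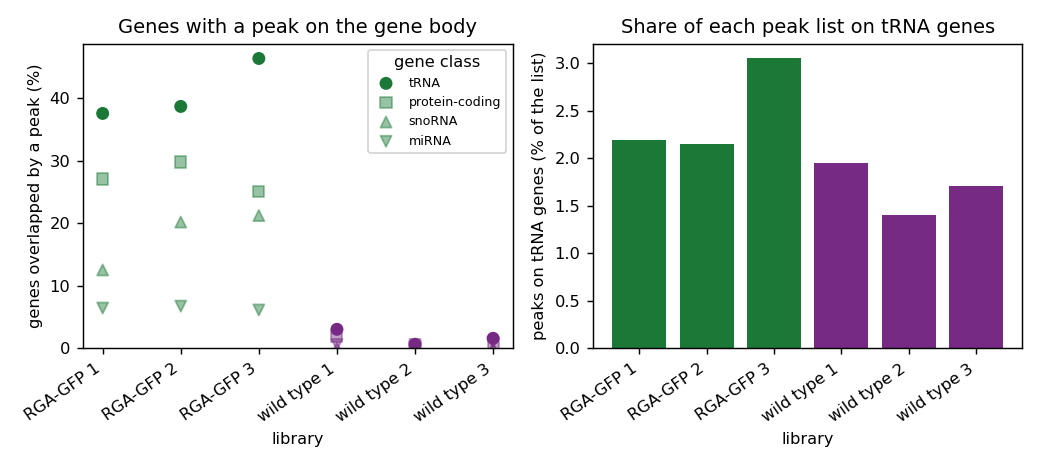
Peaks on tRNA genes by library. The left panel plots, for each of the 6 libraries, the percentage of genes of 4 classes overlapped by a peak (tRNA, protein-coding, snoRNA and miRNA genes), and the right panel the percentage of each library's peaks that overlap a tRNA gene; green is RGA-GFP and purple is wild type. On the left the tRNA points of RGA-GFP lie at 37.6% to 46.4%, above the protein-coding points of the same libraries, and on the right RGA-GFP 3 has the highest bar at 3.05%. Small nuclear RNA genes are not drawn; their shares were 36.6%, 41.5% and 37.8% in RGA-GFP 1, 2 and 3.

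Much the same tRNA genes were found in each replicate. Of the 625 genes, 197 (31.5%) were overlapped in all 3 RGA-GFP lists, 61 in 2, 54 in 1 and 313 in none. Of 27432 protein-coding genes, 5576 (20.3%) were overlapped in all 3, 1821 in 2, 2148 in 1 and 17887 in none. In both classes most genes with a peak had it in all 3 lists, so this agreement was not particular to tRNA genes. Of the 204 tRNA genes with a peak in both RGA-GFP 1 and RGA-GFP 2, 197 (96.6%) also had one in RGA-GFP 3. The converse shares were 86.8% for RGA-GFP 1 and 89.1% for RGA-GFP 2, given a peak in both other lists. Of the tRNA genes with no peak in either other list, 2.19% had one in RGA-GFP 1, 2.49% in RGA-GFP 2 and 11.1% (39 genes) in RGA-GFP 3. The surplus of RGA-GFP 3 thus lay partly in tRNA genes that neither other library showed.

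The peaks were centred close to the tRNA genes. The fold of a replicate peak is the authors' ratio of its summit to the local background of the same library, and its median on tRNA genes was 2.05, 2.01 and 1.98 in RGA-GFP 1, 2 and 3. The median distance from the summit, the highest point of a peak, to the middle of the tRNA gene was 70 bp, 74.5 bp and 58 bp. The summit lay within 100 bp of the middle in 59.6%, 59.5% and 73.1% of the genes with a peak, although the peaks themselves had median lengths of 523 to 548 bp. Small nucleolar RNA genes are nearly as short (median 92 bp), and their median distances were 126, 206 and 154 bp. For microRNA genes, which are made by RNA polymerase II, they were 270, 259 and 241 bp. The distances at tRNA genes were shorter than both classes in every RGA-GFP library, while small nuclear RNA genes, transcribed by RNA polymerase II or III, had distances near those of tRNA genes, at 74.5, 74.5 and 82 bp. Peaks on these 3 classes were longer, with median lengths of 566.5, 668 and 784 bp (small nucleolar), 628, 687 and 617 bp (microRNA) and 596.5, 700.5 and 597 bp (small nuclear). Small nucleolar RNA genes also shared peaks, 36 genes lying on 24 peaks in RGA-GFP 1. The part of peak length and of shared peaks in these distances was not tested. Over the 197 tRNA genes with a peak in all 3 lists, the median SD of the summit position between replicates was 42.7 bp, and the mean summit lay within 100 bp of the gene's middle in 132 (67.0%).

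**Figure D2:**
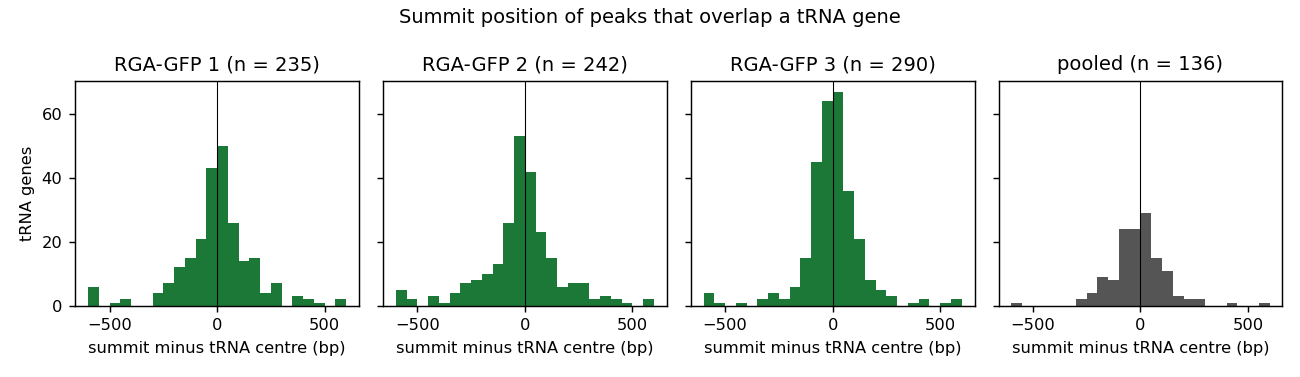
Position of the summit relative to the middle of the tRNA gene, in bp, for peaks that overlap a tRNA gene in each RGA-GFP list and in the pooled list; bars count tRNA genes in steps of 50 bp, and positions beyond the axis are counted in the end bars. Each panel has its highest bars beside 0, with median distances of 70, 74.5 and 58 bp in the replicates and 65 bp in the pooled list.

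In the authors' table the members reached replicate lists about as often as other genes but were less often in the pooled list. A peak stood in the window in all 3 RGA-GFP lists for 223 of the 333 tRNA genes (67.0%), in 2 lists for 55 and in 1 list for 55; of the other genes in the table, 65.3% were in all 3. A pooled peak, one called against the combined wild type, was present for 172 (51.7%), against 64.6% of the other genes. Windows differ in length, with a median of 1069 bp (12 to 4587 bp) for tRNA genes and 4285 bp for protein-coding genes, because they are cut at neighbouring genes. Among genes in all 3 lists, where the replicate requirement is the same, 158 of 223 tRNA genes (70.9%) had a pooled peak, against 86.1% of protein-coding genes and 81.6% of other noncoding genes. The same held on the gene body: 121 of the 197 tRNA genes overlapped in all 3 lists (61.4%) were overlapped by a pooled peak, against 81.9% of such protein-coding genes.

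The 76 tRNA genes that had a peak on the gene in all 3 lists and no pooled peak there had lower replicate folds, with medians of 1.96, 1.95 and 2.01, than the 121 with one, at 2.23, 2.19 and 2.22. Of the 76, 15 were also overlapped by a wild type peak, against 1 of the 121. The pooled list was itself called against wild type. The part of the window length and of the lower replicate folds in the lower pooled share was not tested.

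Pooled folds of the members were modest. Over the 172 with a pooled peak, the median enrichment relative to the wild type libraries together was 1.65-fold (range 1.29 to 2.60, quartiles at 1.54 and 1.80), against 1.74 for the other genes of the table. A pooled fold of at least 2 was reached by 12 of the 172 (6.98%), against 17.7% of the other genes of the table with a pooled peak. The pooled fold and the replicate folds are different ratios, because the replicate lists had no wild type control.

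The higher pooled folds were found where the summit of a window's strongest pooled peak lay farther from the tRNA gene. With an overlap of at least 50 bp, 168 members had a pooled peak in the window, each with a strongest peak of its own. Only this peak was used, so a window with a weaker pooled peak on the tRNA gene could count as far, as at AT5G11325. This choice by fold favours high folds among the far windows, and its part in the differences below was not tested. Windows also differed in length, and the part of window length in these differences was not tested either. The summit lay inside the tRNA gene in 29 (17.3%), within 100 bp of its middle in 76 (45.2%) and within 250 bp in 108 (64.3%); the farthest was 3043 bp away. The median pooled fold was 1.60 for the 108 within 250 bp and 1.80 for the 60 beyond. A fold of at least 2 occurred in 2 of the 108 and in 10 of the 60, and a wild type peak in the window in 3 of the 108 and in 12 of the 60. The median replicate folds of the windows within 250 bp were 2.20, 2.17 and 2.21, and those beyond were 2.67, 2.53 and 2.28. The gap between near and far windows was thus largest in RGA-GFP 1 and smallest in RGA-GFP 3, the library with the most tRNA genes under a peak. For 7 of the 60 the peak still overlapped the tRNA gene although its summit lay beyond 250 bp.

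**Figure D3:**
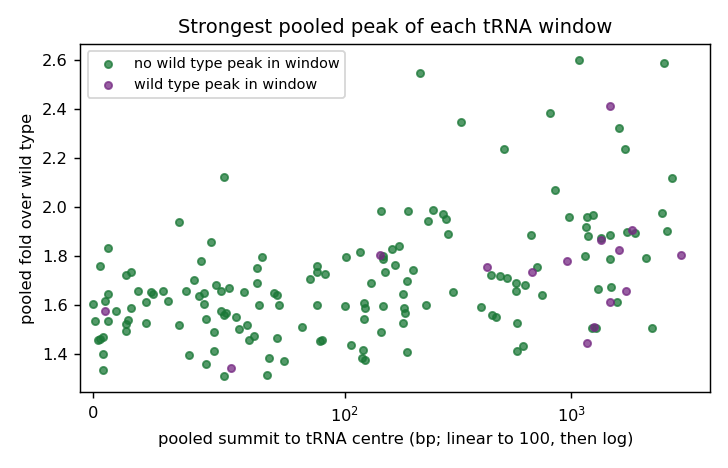
Fold over the combined wild type of the strongest pooled peak of each tRNA window (vertical axis) against the distance from its summit to the middle of the tRNA gene in bp (horizontal axis, linear to 100 bp and logarithmic beyond), for 168 members; purple points have a wild type peak in the window. Only 2 points within 250 bp reach a fold of 2, and the highest points lie beyond it.

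Of the 168 strongest pooled peaks, 156 (92.9%) also lay in the window of a protein-coding gene, and 77 in those of 2 or more. Of all 8112 pooled peaks, 69.6% overlapped the body of a protein-coding gene, which is a different measure. The share in protein-coding windows was not counted over all pooled peaks, so the 92.9% cannot be read as particular to tRNA windows. A pooled peak in a tRNA window is therefore in most cases a peak that the same table also counts for a protein-coding neighbour. The 168 windows together held 193 different pooled peaks, and 23 members had 2 or more.

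Of the 10 members with the highest pooled fold, 8 had the summit more than 250 bp from the tRNA gene, and for 9 the peak lay in the window of a protein-coding gene. The first was AT5G11325, a glycine tRNA gene (anticodon TCC), with a pooled fold of 2.60 at a peak at chr5:3615770-3616310, 1079 bp away, which also lay in the window of YUC4, an enzyme of auxin synthesis. At that peak the replicate folds were 4.38, 3.81 and 3.13, with no wild type peak. The tRNA gene itself had separate, lower replicate peaks of 1.96, 1.86 and 2.16, and a weaker pooled peak also lay on it. RGA-GFP 1 was the highest at the strong peak, and RGA-GFP 3 was the highest on the tRNA gene.

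AT3G63006, an alanine tRNA gene (TGC), had a pooled fold of 2.59 at chr3:23288074-23288658. This peak lay 2572 bp from the tRNA gene, in the window of GID1B, a gibberellin receptor, and its replicate folds were 2.43, 2.51 and 1.88. On the tRNA gene RGA-GFP 2 and RGA-GFP 3 had peaks of 1.77 and 1.89, and RGA-GFP 1 had none. A weaker pooled peak lay on this tRNA gene as well. AT5G14495 (aspartate, GTC) had a pooled fold of 2.38 at a peak 805 bp away that it shared with NAC085, a gene for a NAC transcription factor, with replicate folds of 3.97, 3.81 and 3.17. AT5G07675 (alanine, AGC) had 2.32 at a peak 1624 bp away shared with NAC080, another NAC gene, with replicate folds of 3.47, 3.21 and 2.60 and no RGA-GFP peak on the tRNA gene. In each of these the peak called strongest lay outside the tRNA gene, and RGA-GFP 3 gave the lowest of the 3 folds there. Over its whole peak list RGA-GFP 3 also had the lowest median fold, 1.95 against 2.13 in RGA-GFP 1 and 2.04 in RGA-GFP 2.

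AT1G07100, an isoleucine tRNA gene (TAT), had a pooled fold of 2.41 at a peak 1483 bp away shared with LSH6, a gene of the LSH family, and replicate folds of 3.50, 3.11 and 2.50. Its own tRNA gene carried peaks of 2.43, 2.43 and 2.85 in RGA-GFP and of 1.98 in wild type 1, so that the RGA-GFP peaks there also had a background peak. Of the 10, it alone had a peak in a wild type list as well. AT4G37175 (glutamate, TTC) had a pooled fold of 2.24 with the summit at 1728 bp. AT3G61755 (alanine, CGC) had 2.24 with the summit at 506 bp; its replicate folds were 3.40, 3.39 and 2.76, and the RGA-GFP 2 and 3 peaks reached the tRNA gene. AT5G56975 (valine, CAC), with 2.35 at 326 bp, was the only one of the 10 whose peak lay in no protein-coding window; its replicate folds were 3.01, 3.33 and 2.72, and all 3 of these replicate peaks overlapped the tRNA gene.

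The remaining pair had the summit of the strongest pooled peak within 250 bp of the tRNA gene's middle. AT5G08075 (alanine, CGC) had a pooled fold of 2.55 at chr5:2587794-2588449, with the summit 214 bp from the gene's middle, and replicate folds of 3.85, 3.79 and 3.20; the peak also lay in the window of SYP132, a gene for a syntaxin of the plasma membrane. AT5G05985 (valine, CAC) had a pooled fold of 2.12 at chr5:1804079-1804951, 52 bp from the middle, and replicate folds of 3.77, 3.37 and 3.31. Its window was 313 bp long, and the peak also lay in those of DFB, an enzyme that adds glutamate to folates, and PRA1.A2. None of the 3 wild type lists had a peak in either window.

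In 8 members the summit of the strongest pooled peak lay 0 to 4 bp from the middle of the tRNA gene, and their pooled folds ran from 1.33 to 1.76. Members in which only a weaker pooled peak had its summit as close, such as AT5G11325, are not counted here. AT2G17810 (isoleucine, AAT; chr2:7742617-7742953, 0 bp) had a pooled fold of 1.61 and replicate folds of 1.67, 1.59 and 1.87. AT5G10525 (arginine, CCT; 1 bp) had a pooled fold of 1.54 and replicate folds of 2.11, 1.82 and 1.99. AT4G31075 (arginine, TCT; chr4:15120297-15121138, 3 bp) had a pooled fold of 1.76 and replicate folds of 2.35, 2.66 and 2.62. The last was the highest of the 8 and the one with the longest peak, 842 bp. AT4G27395 (phenylalanine, GAA), AT1G06610 (alanine, AGC) and AT1G17670 (valine, AAC) had pooled folds of 1.46, 1.47 and 1.46, with replicate means of 1.84 ± 0.035, 2.38 ± 0.30 and 2.19 ± 0.27 (SD, n = 3). AT5G05945 (aspartate, GTC) and AT5G11475 (phenylalanine, GAA), which tied with AT1G06610 at 4 bp, had pooled folds of 1.33 and 1.40. All 8 were in all 3 RGA-GFP lists with the peak on the tRNA gene, and the wild type lists were empty in all 8 windows. All 8 peaks also lay in the window of at least 1 protein-coding gene.

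A wild type peak stood in the window of 36 members (10.8%), against 8.23% of the other genes of the table. These shares are per window and not per bp. The median window was 1069 bp for tRNA genes and 4245 bp for the other genes, and the part of this difference was not tested. By library, 31, 5 and 13 members had a peak in wild type 1, 2 and 3, against 262, 274 and 306 in RGA-GFP 1, 2 and 3. Wild type 1 carried most of these: without it, 14 members had a wild type peak. With a pooled peak the share was 17 of 172 (9.88%), against 9.87% of the other genes with one. Without a pooled peak it was 19 of 161 (11.8%), against 5.22%.

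Of the 36 members, 27 had the peak in 1 wild type list, 5 in 2 and 4 in all 3. Those 4 were AT2G07755 (methionine), AT2G07759 (serine), AT2G07763 (cysteine) and AT2G07764 (asparagine) on chromosome 2, in a stretch known to hold a copy of the mitochondrial genome. The last 3 share the same peaks, with folds of 2.18, 1.73 and 1.74 in RGA-GFP and 1.39, 1.37 and 2.51 in wild type, so they are 1 site and not 3. At AT2G07755 the folds were 2.05, 1.73 and 1.73 in RGA-GFP and 1.42, 1.41 and 2.43 in wild type. The groups overlapped at both sites, wild type 3 being the highest library, and neither had a pooled peak. Over its whole peak list wild type 3, the shallowest library, also had the highest median fold of all libraries, 2.78. Its folds at both sites lay below that median. Whether the tags at these sites came from mitochondrial DNA was not tested. AT4G17612 (tryptophan, CCA) had a pooled fold of 1.45 at a peak 1169 bp away, shared with CBL1, a calcium sensor. At that peak the RGA-GFP folds were 2.78, 2.69 and 2.23. Wild type 1 had a peak of 2.07 there, so the groups did not overlap at this site. On the tRNA gene itself RGA-GFP had peaks of 2.50, 2.09 and 2.19, and wild type 3 had a higher one of 3.07. Of the other members with peaks in 2 wild type lists, the methionine gene AT1G69000 had RGA-GFP peaks of 2.95, 3.36 and 3.15 above wild type peaks of 2.47 and 2.51, and its groups did not overlap. In the windows of AT3G48515, AT4G23635 and AT1G61880 they did.

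By amino acid, the listed share was highest for glutamine (14 of 17), glutamate (19 of 24) and isoleucine (17 of 22), and lowest for tyrosine (13 of 75), proline (20 of 66), cysteine (6 of 15) and serine (29 of 64). A peak on the gene in all 3 lists was most frequent for histidine (6 of 10) and phenylalanine (9 of 16), and least for tyrosine (9 of 75) and cysteine (2 of 15). The tyrosine, serine and proline genes of chromosome 1, many of which form repeated arrays there, were listed in 16 of 130 cases (12.3%). This group was set by amino acid and chromosome, and membership of an array was not determined. The listed share was 46 of 75 (61.3%) for genes of the same amino acids on other chromosomes and 70 of 108 (64.8%) for other tRNA genes of chromosome 1. A peak on the gene in all 3 lists was present in 6.15%, 37.3% and 40.7% of these 3 groups. On other chromosomes, the 3 amino acids were thus close to the other tRNA genes of chromosome 1. By chromosome the listed share was 36.1%, 56.8%, 65.2%, 67.5% and 65.9% for chromosomes 1 to 5.

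Among listed genes, a pooled peak was present for 13 of 17 isoleucine and 5 of 7 histidine genes, but for 1 of 6 cysteine and 8 of 27 leucine genes. The median pooled fold by amino acid ran from 1.52 for aspartate to 1.88 for glutamate. Most classes hold few genes, and no class was tested against another.

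**Figure D4:**
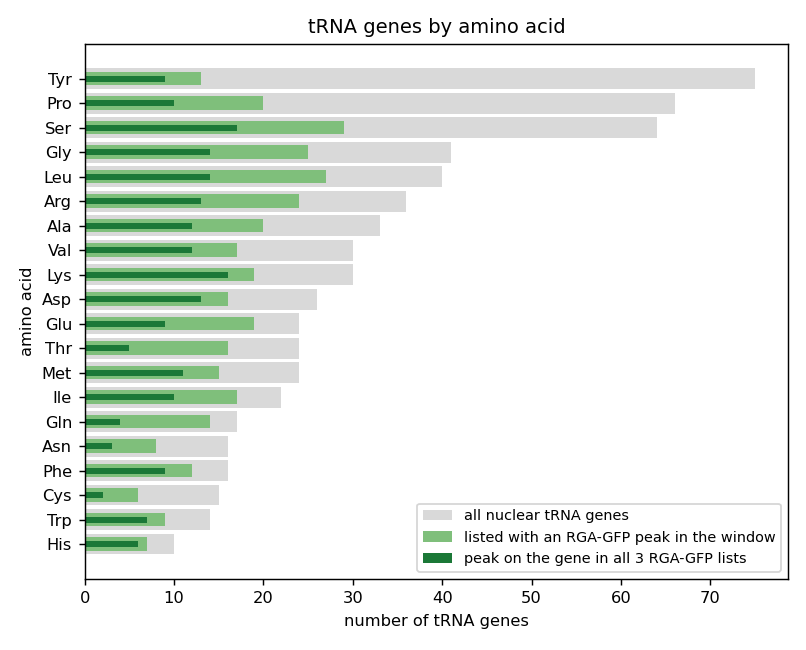
Number of nuclear tRNA genes by amino acid (grey), of those listed with an RGA-GFP peak in the window (light green), and of those with a peak on the gene in all 3 RGA-GFP lists (dark green). Tyrosine, proline and serine have the most genes, 75, 66 and 64, of which 13, 20 and 29 are listed, while glutamine has 14 of 17 genes listed.

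A close tRNA neighbour and a distant protein-coding gene both went with few peaks. Of the 150 tRNA genes with another tRNA gene within 1 kb, 21 (14.0%) were listed and 8 (5.33%) had a peak on the gene in all 3 lists; of the 475 with none, 312 (65.7%) were listed and 189 (39.8%) had such a peak. The 150 also lay farther from protein-coding genes, at a median of 3133 bp against 92 bp for the 475. A close tRNA neighbour and distance were therefore not separated here. By distance to the nearest protein-coding gene, a peak on the tRNA gene in all 3 lists was present in 15 of 62 genes (24.2%) that overlapped one and in 152 of 341 (44.6%) at 1 to 250 bp. It was present in 14 of 51 (27.5%) above 250 and up to 500 bp, in 6 of 42 (14.3%) above 500 and up to 1000 bp and in 10 of 129 (7.75%) farther away. The share thus fell with distance beyond 250 bp, and genes inside or across a protein-coding gene had fewer than those just beside one. Wild type peaks were on 4.84%, 4.40%, 3.92%, 0% and 1.55% of the genes in the same order. The tyrosine, serine and proline genes of chromosome 1 are also far from protein-coding genes, at a median of 5504 bp. Membership of this group and distance therefore cannot be told apart for them. How the authors placed reads that match several tRNA copies is not given in the sources used here, and its part in these differences was not tested.

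**Figure D5:**
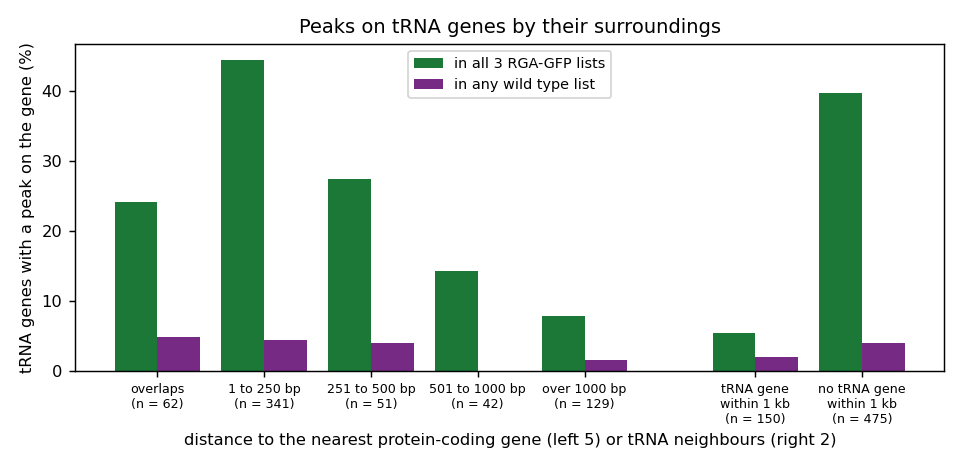
Percentage of nuclear tRNA genes with a peak on the gene in all 3 RGA-GFP lists (green) and in any wild type list (purple), by distance to the nearest protein-coding gene and by whether another tRNA gene lies within 1 kb. The green bars are highest at 1 to 250 bp (44.6%) and lowest for tRNA genes with a near tRNA neighbour (5.33%).

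Of the 333 members, 293 (88.0%) had an RGA-GFP peak on the tRNA gene itself in at least 1 list and 186 in all 3, while 40 were listed for a peak elsewhere in the window. The table requires a replicate −log10 q of at least 3. The members just inside this limit were AT2G29520 (valine, highest −log10 q 3.04), AT5G50995 (tyrosine, 3.09) and AT4G15775 (lysine, 3.27), each in 1 list with no pooled peak. Just outside lay AT5G02505 (histidine, 2.97) and AT1G06860 (glycine, 2.28). In all, 19 of the 292 unlisted genes had an RGA-GFP peak on the gene. Most of the 19 passed the limit of 3, and why they were not listed is not known. Of the 19, 11 had the peak in all 3 lists. One of these, the leucine gene AT4G08345, had replicate folds of 5.56, 5.74 and 5.26, the highest of any tRNA gene in each RGA-GFP list, and wild type 1, 2 and 3 had there their highest folds on a tRNA gene, at 11.3, 11.8 and 14.6. RGA-GFP was the lower group at this gene and the groups did not overlap.

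Of the members in 1 list, the 2 with the highest replicate fold were AT1G61880 (tryptophan, CCA) and AT1G60910 (glycine, GCC). AT1G60910 had a peak of 2.34 on the tRNA gene in RGA-GFP 3 and none in any other library. For AT1G61880 the deposited peak lists gave peaks of 3.45, 3.68 and 1.89 in all 3 RGA-GFP libraries and of 2.20 and 2.27 in wild type 1 and 2, so that its number of lists in the table was not recovered. The number of lists was recovered for 312 of the 333 members, and the pooled fold for 166 of the 168.

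The machinery around tRNA genes was also looked up, as a list of 14 genes for RNA polymerase III, its factors and tRNA processing. The planned list also held MAF1, which was dropped from the count. Of the 14 genes, 8 were in the table and 5 had a pooled peak, against 29.7% of protein-coding genes. They were TBP2 and TBP1, which encode the TATA-binding protein (pooled folds 1.91 and 1.82), PRORP2, a nuclear RNase P that trims the front of tRNAs (1.56), TRZ1, an RNase Z that trims their end (1.41), and TFIIIA, the factor for ribosomal 5S genes (1.41). Replicate folds were 2.57, 2.72 and 2.32 at TBP2 and 2.11, 1.88 and 1.89 at TBP1. NRPC1, the largest subunit of RNA polymerase III, had peaks in all 3 lists (1.67, 1.89 and 1.74) but no pooled peak. Wild type peaks were absent from the windows of all 8 genes in the table. They are uncommon there in general, reaching 8.23% of the windows of genes other than tRNA genes. The machinery genes outside the table have no window in it, so their background was not looked at. With a pooled −log10 q of at least 5, only TBP2 and TBP1 were left.

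Of 15 aminoacyl-tRNA synthetase genes that the table lists, which encode the enzymes that load tRNAs with amino acids, 7 (46.7%) were in all 3 lists and 5 (33.3%) had a pooled peak, both below the shares over all genes of the table, 65.3% and 64.3%. The pooled folds were 1.90 at AT3G16565, annotated as an alanine-tRNA ligase, 1.78 at ERS, a glutamate-tRNA synthetase, 1.58 at SRS, a serine-tRNA synthetase, 1.57 at EMB2247, a valine-tRNA ligase, and 1.55 at HRS1, a histidine-tRNA synthetase. These genes were found through the table, so the share of all synthetase genes is not known.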

How the data were processed

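Per the submitters' processing notes, Bowtie2, SAMtools and MACS2 2.0.10 were used on TAIR10. Per the file headers, the authors called each library without a control (tags extended to 300 bp, q cutoff 0.05, 1 tag per position, background over 10000 bp), and combined RGA-GFP against combined wild type. The fold is the authors' ratio of summit to background, the significance their −log10 q value, and the pileup their deposited signal at the summit, which served only to describe peaks. The count of replicate lists per gene (1 to 3) comes from the authors' deposited table, whose windows run 3000 bp upstream and 1500 bp downstream, per the file headers, and end at neighbouring genes.

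Listed members, lists and pooled peaks were taken from that table. Overlaps were recounted with pandas 2.3.3 (at least 50 bp with windows, 1 bp with gene bodies) and tested on simulated data; at 1 bp all 172 pooled entries were recovered, at 50 bp 168. RefSeq TAIR10.1 gave tRNA and protein-coding gene positions, none of which is printed, and amino acids and anticodons came from the table. Samples were grouped by title. No test was made. Named members are the 10 with the highest pooled fold and the 6 whose strongest pooled peak had the closest summit (ties by locus). The 5 with the most wild type lists (ties by pooled fold) and the 2 single-list members with the highest replicate fold were also named. Members tied with these were named after their values were seen. Members and lists were chosen with earlier results of these data known. Alternatives changed the overlap, the q limits, the window and the replicates used. Depth was 3999159 to 16745139 tags kept per library, and the shallow wild type libraries limit what background could be seen.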

Additional observations from a re-analysis of the deposited data

How the results depend on the processing

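Of 42 alternatives, 36 stayed within 1.5 times the reported count. A pooled −log10 q of at least 5 lowered the tRNA genes with a pooled peak in the window from 172 to 100, those overlapped by a pooled peak from 130 to 65, those whose pooled peak also lay in a protein-coding window from 156 to 90, the distinct pooled peaks from 193 to 114, and the machinery genes with a pooled peak from 5 to 2, since fewer pooled peaks pass it. Leaving out 1 wild type library at a time gave 14 to 36 tRNA genes with a wild type peak, the lowest without wild type 1. Leaving out 1 RGA-GFP list gave 296 to 326 listed tRNA genes and 240 to 254 in both remaining lists. Restricting pooled peaks to those that overlap no wild type peak left 160 tRNA genes with one. Leaving out replicate lists did not apply to the pooled list, which was called once on combined libraries. No paired analysis was possible because the counts come from peak lists and from no test. The wild type libraries were shallower, so the lack of a wild type peak does not show a lack of background.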

Other observations

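Small nuclear RNA genes, which make RNAs of the spliceosome, had peaks on the gene at shares near those of tRNA genes in RGA-GFP 1 and 2, and small nucleolar RNA and microRNA genes at lower shares in each RGA-GFP list. Of 82 small nuclear RNA genes, 36.6%, 41.5% and 37.8% were overlapped in RGA-GFP 1, 2 and 3, with median folds of 2.29, 2.26 and 2.32, and 24.4% by a pooled peak. In wild type 1, 11.0% were overlapped (9 genes), and none in wild type 2 or 3. Of 287 small nucleolar RNA genes, 12.5%, 20.2% and 21.3% were overlapped in the RGA-GFP lists and none in the wild type lists. Of 326 microRNA genes, the shares were 6.44%, 6.75% and 6.13%. By genes overlapped, RGA-GFP 3 was the highest library for tRNA and small nucleolar RNA genes and not for small nuclear RNA or microRNA genes. As a share of the peak list it was the highest RGA-GFP library for all 4 classes, at 0.439% for small nucleolar RNA, 0.321% for small nuclear RNA and 0.214% for microRNA genes.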
